A study of Mus musculus with 26 samples.

Results

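The 6 clusters of mouse liver transcripts described here were far less counted in RNA precipitated with an antibody against hnRNPK than in total liver RNA. They are 6 of the 31469 transcript clusters in the deposited tables, and they were taken by their cluster numbers, 1068, 1071, 1925, 16098, 21105 and 6419. Each is called by its most counted transcript in total RNA, which is uc007cwk.2, uc007cwn.2, uc007fbw.1, uc008mej.2, uc008ydm.1 and uc029ryu.1 in that order. The numbers were chosen because the ratio of immunoprecipitated (IP) to total RNA had been seen to be low, so that ratio is given below as a description with no test. The files pair no transcript with a gene symbol, so the clusters carry no gene name and no role.

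hnRNPK is an RNA-binding protein of the heterogeneous nuclear ribonucleoprotein family that prefers cytosine-rich single-stranded RNA and moves between nucleus and cytoplasm. It is known for parts in transcription, splicing, messenger RNA stability and translation. In an RNA immunoprecipitation, transcripts that go with the protein make up a larger share of the reads than in the starting RNA, and transcripts that do not are diluted.

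Livers came from 3 mouse groups: ob/ob, which is strain B6.V-Lepob/J, deficient in leptin and fed normal diet; high-fat, which is C57BL/6J fed high-fat diet; and wild type, which is C57BL/6J fed normal diet. Ages and sexes were not given, and no label says whether replicates were different animals, so the p-values cover the spread between these samples only. Each mouse group had 2 cytoplasmic IP libraries, 2 nuclear IP libraries and 2 total RNA units, each of these being 2 libraries that share a replicate number. A single IgG control library was made per compartment from mixed strains and diets. Per the labels' protocols, cytoplasmic and salt-extracted nuclear fractions were incubated with IgG beads before the anti-hnRNPK beads, and total RNA was not the input of either extract.

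Cytoplasmic IP libraries held 8834063 to 12068891 counts, nuclear IP libraries 5336060 to 10581089 and total RNA libraries 25597307 to 41731910. The IgG control had 338469 counts in the cytoplasm and 3116786 in the nucleus, so a cluster of the abundance described here had few counts in cytoplasmic IgG. Between the 2 libraries of a total RNA unit, the CPM of a member, defined below, differed by a ratio of 0.884 to 1.21 over 36 such pairs. Levels are CPM, a cluster's counts relative to library size, scaled by TMM, a method that corrects for a few clusters taking a large share of a library. Intervals on counts are 95% and cover counting error only.

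In total RNA, 5 of the 6 clusters were abundant and 1 was scarce. Per unit of transcript length, uc007cwn.2 and uc007cwk.2 led with medians of 142 and 140 TPM, the authors' length-corrected measure, over the 6 units, and their ranges of 127 to 164 and 137 to 145 TPM overlapped. By mean TPM they ranked 889 and 899 among the 13516 clusters tested. uc007fbw.1 followed at 88.0 to 105 TPM with a median of 94.3. Below it lay uc008ydm.1 at 64.5 to 83.5 TPM (median 76.8) and uc008mej.2 at 51.8 to 71.995 TPM (median 66.0), which overlapped. uc029ryu.1 had 3.55 to 4.46 TPM, with a median of 3.80 and a rank of 9182 among the same tested clusters. The main transcripts spanned ordinary messenger lengths, from 2110 nt for uc008ydm.1 to 5612 nt for uc008mej.2, longer than 35.1% and 88.8% of the 13516 clusters tested. Together the 6 summed to 50.1 to 58.6 CPM in cytoplasmic IP and 112 to 151 CPM in nuclear IP, against 707 to 811 CPM in total RNA.

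The label these clusters came with, most consistently depleted, went against the data. Clusters with at least as many total RNA counts as the scarcest of the 6, 2726 counts over 6 units, were ranked by the highest log2 ratio to total RNA reached in any of the 12 IP libraries. Among these 9258 clusters, uc007cwn.2 stood at rank 4 with a ratio of −5.05 and uc008ydm.1 at rank 37 with −3.55. The next were uc007fbw.1 at rank 133 (−2.52), uc029ryu.1 at rank 135 (−2.51) and uc008mej.2 at rank 310 (−1.88). uc007cwk.2 stood at rank 751 (−1.18), so 751 clusters, members included, had a highest ratio at or below its own, which it reached in nuclear IP. The first 2 clusters outside the set were uc008tbo.3 at −5.89 and uc007nqc.1 at −5.32. By cytoplasmic IP alone the 6 lay between ranks 6 and 151, and by nuclear IP alone between ranks 15 and 1363. Ranked instead by the median of the 12 ratios, they lay between rank 9 for uc029ryu.1 and rank 470 for uc008mej.2. The set is therefore described as clusters low in both IPs.

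uc007cwn.2 was the most depleted of the 5 abundant clusters, and to a similar degree in both compartments. Its lowest, median and highest levels were 4.19, 5.37 and 5.47 CPM in cytoplasmic IP, against 164, 198 and 215 CPM in total RNA. In nuclear IP they were 1.57, 3.88 and 5.59 CPM. All 12 IP libraries lay far under every total RNA unit. Against total RNA of the same mouse group, the cluster was 33.5-fold to 43.7-fold lower in cytoplasmic IP, with a median of 37.7-fold. In nuclear IP it was 36.5-fold to 117-fold lower, with a median of 49.8-fold, and its counts there summed to only 160 over the 6 libraries.

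uc008ydm.1 was likewise low in both compartments alike. It had 3.77, 4.61 and 5.57 CPM (lowest, median and highest) in cytoplasmic IP and 3.59, 4.38 and 6.54 CPM in nuclear IP, against 68.6, 74.8 and 78.1 CPM in total RNA. The ranges of the IPs overlapped each other and neither came near total RNA. Its depletion was 12.8-fold to 20.4-fold in cytoplasmic IP, median 15.9-fold, and 11.8-fold to 20.7-fold in nuclear IP, median 16.5-fold.

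uc007cwk.2 was low chiefly in the cytoplasm. Its lowest, median and highest levels were 9.19, 11.7 and 12.1 CPM in cytoplasmic IP, against 143, 156 and 178 CPM in total RNA. In nuclear IP they were 45.3, 57.1 and 68.2 CPM. The 3 kinds of RNA did not overlap, and nuclear IP lay between the others. The cluster was 12.8-fold to 16.3-fold below total RNA in cytoplasmic IP (median 14.2-fold) and 2.27-fold to 3.30-fold below it in nuclear IP (median 2.85-fold).

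uc008mej.2 and uc007fbw.1 had the same order of compartments with smaller gaps. uc008mej.2 had 13.7, 17.02 and 21.9 CPM in cytoplasmic IP and 35.5, 41.9 and 45.0 CPM in nuclear IP, against 157, 172 and 184 CPM in total RNA. uc007fbw.1 had 13.5, 16.5 and 18.01 CPM in cytoplasmic IP and 24.0, 27.4 and 31.2 CPM in nuclear IP, against 151, 179 and 191 CPM in total RNA. In neither cluster did any of the 3 kinds of RNA overlap. The medians of depletion were 10.2-fold and 3.98-fold for uc008mej.2 in cytoplasmic and nuclear IP, with full ranges of 7.57-fold to 12.2-fold and 3.69-fold to 5.08-fold. For uc007fbw.1 they were 11.1-fold and 6.25-fold, with ranges of 8.76-fold to 13.2-fold and 5.75-fold to 7.34-fold.

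uc029ryu.1 was at the edge of detection in the IPs. It had 0 counts in 5 of 6 cytoplasmic IP libraries and 0.322 CPM in the remaining one, and 0 to 0.836 CPM in nuclear IP with a median of 0.211, against 4.60 to 5.35 CPM in total RNA with a median of 5.08. Summed over libraries it had 2 counts in cytoplasmic IP, against 2726 in total RNA, a level 126-fold lower with an interval of 34.9-fold to 1043-fold. In nuclear IP it had 10 counts, a level 20.8-fold lower with an interval of 11.3-fold to 43.5-fold. Every IP library lay under every total RNA unit, but the size of the gap is known only to within these intervals.

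**Figure D1:**
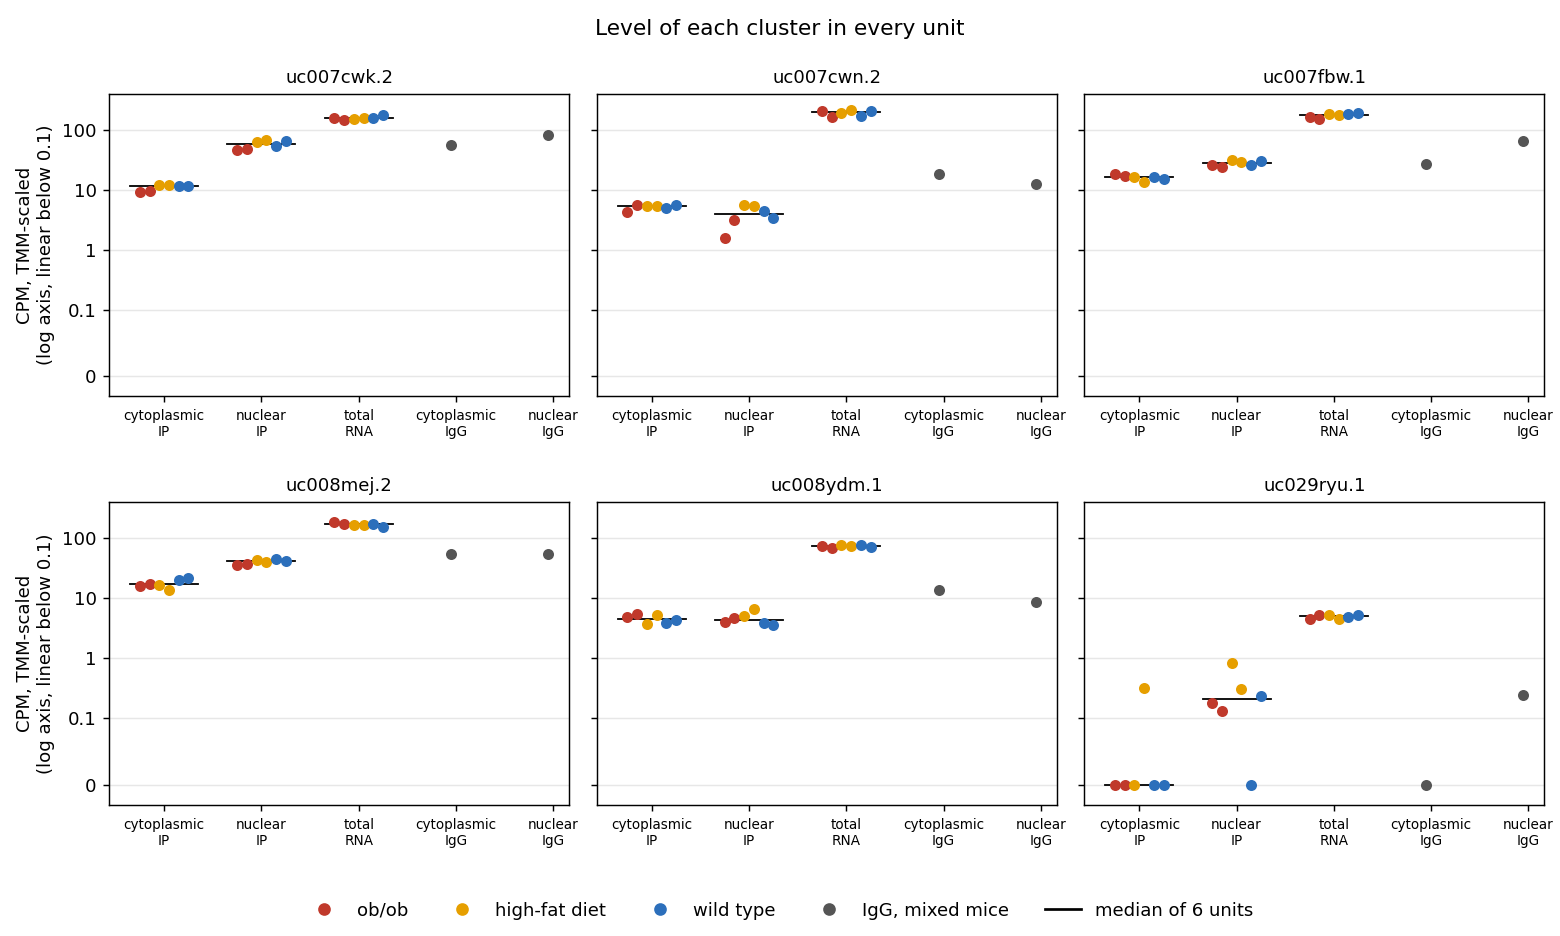
Each panel plots the level of 1 cluster (CPM with TMM scaling, log axis that is linear below 0.1) in the cytoplasmic IP, nuclear IP, total RNA and IgG libraries. Points are units coloured by mouse group and lines mark the median of 6 units. For uc007cwk.2 the nuclear IP points sit at 45.3 to 68.2 CPM, between cytoplasmic IP (9.19 to 12.1 CPM) and total RNA (143 to 178 CPM), while for uc007cwn.2 both IPs sit together.

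Over all clusters, 41.2% were called lower in cytoplasmic IP than in total RNA and 42.5% were called lower in nuclear IP, by edgeR's quasi-likelihood test at an adjusted p under 0.05. The 6 clusters were chosen on these contrasts, so nothing is read from their own calls. Their median fitted log2 fold change was −4.00 in cytoplasmic IP and −3.42 in nuclear IP, against medians of −0.11 and −0.18 over the 13516 clusters tested. All 6 passed the filter on low counts, and uc029ryu.1, with few counts in the IPs, passed it through total RNA.

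**Figure D2:**
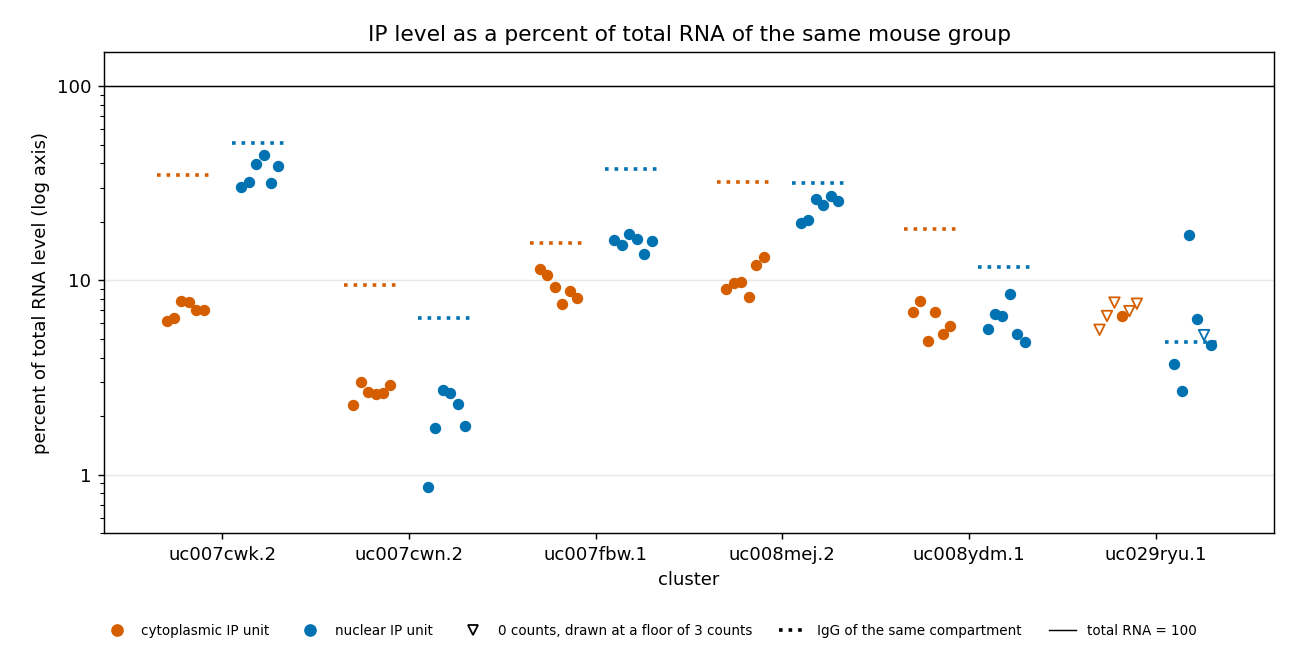
Level of each cluster in every IP unit as a percent of the mean total RNA level of the same mouse group (log axis), with cytoplasmic IP in orange and nuclear IP in blue. Open triangles are units with 0 counts drawn at a floor of 3 counts, and dotted lines are the IgG library of the same compartment, which is not drawn for uc029ryu.1 in the cytoplasm, where it had 0 counts. The points of uc007cwn.2 lie at 0.858% to 2.98%, and those of uc007cwk.2 split into 6.15% to 7.79% (cytoplasmic) and 30.3% to 44.0% (nuclear).

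The ratio of the IPs to each other was not used to choose the clusters, although the same libraries entered both choices, and it was tested. Relative to cytoplasmic IP, nuclear IP was higher for uc007cwk.2 by 2.35 ± 0.08 on the log2 scale (SE; adjusted p = 2.2e-11, edgeR's quasi-likelihood test with Benjamini-Hochberg adjustment over all clusters). It was also higher for uc008mej.2, by 1.21 ± 0.08 (adjusted p = 6.8e-09, edgeR), and for uc007fbw.1, by 0.76 ± 0.08 (adjusted p = 1.4e-06, edgeR). These 3 clusters were less depleted in the nucleus than in the cytoplasm, with no overlap between the 6 nuclear and 6 cytoplasmic IP libraries of any of them.

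The remaining 3 clusters did not share that clear difference. uc007cwn.2 was lower in nuclear IP by a log2 fold change of −0.45 ± 0.16 (adjusted p = 0.020, edgeR), with ranges that overlapped. That call was lost without ob/ob cytoplasmic IP replicate 2 (−0.38, adjusted p = 0.056), without ob/ob nuclear IP replicate 1 (−0.34, adjusted p = 0.060), and without wild-type nuclear IP replicate 2 (−0.39, adjusted p = 0.051), all in edgeR. It was also lost when libraries were scaled by size alone (−0.29, adjusted p = 0.20 in edgeR). For uc008ydm.1 no difference passed the test, at −0.01 ± 0.12 (adjusted p = 0.97, edgeR), and the ratio of summed nuclear to cytoplasmic counts was 0.944 with an interval of 0.774 to 1.15. Its sign turned under other scalings. uc029ryu.1 had 10 counts in nuclear IP, against 2 in cytoplasmic IP, a ratio of 6.06 with a counting interval of 1.29 to 56.9. It had entered the fit through total RNA, and its call in edgeR ended without high-fat nuclear IP replicate 1 (adjusted p = 0.054) or without wild-type nuclear IP replicate 2 (adjusted p = 1.0), so nothing is read from that call.

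In all, 5 of the 6 clusters passed this test, 4 higher and 1 lower in nuclear IP, and with uc029ryu.1 set aside 4 of 5 did, 3 higher and 1 lower. Over the whole table, 64.6% of all clusters passed it, 31% higher and 33.6% lower. A difference between the IPs was thus usual in the whole table, and nothing particular to the 6 is read from the count. The median log2 fold change of the 6 was 0.99, against −0.04 over all clusters tested, and it includes the 4.14 of uc029ryu.1. With that cluster set aside, the middle value was the 0.76 of uc007fbw.1.

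The IgG controls were also low in these clusters. In cytoplasmic IgG, uc007cwk.2 had 24 counts or 54.6 CPM (35.01 to 81.3), 2.87-fold below its mean in total RNA. The same library held 8 counts of uc007cwn.2 or 18.2 CPM (7.86 to 35.9), 10.6-fold below total RNA. There were 12 counts of uc007fbw.1, 24 of uc008mej.2 and 6 of uc008ydm.1, which put them 6.39-fold, 3.13-fold and 5.43-fold below total RNA. The counting intervals of these 5 folds reach down to 1.93-fold for uc007cwk.2 and stay above 2-fold for the others. uc029ryu.1 had 0 counts, and the floor of 3 counts stands at 6.83 CPM in this library, above its level in total RNA, so nothing can be said of it there. The 5 clusters with counts thus lay at least 2-fold below total RNA in cytoplasmic IgG. Of the 13516 clusters tested 32.7% did, a share that takes any cluster with 0 counts as below. By that rule 6 of 6 members did, and in so shallow a library the share partly reflects depth.

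In nuclear IgG, which was sequenced more deeply, the same clusters were low by 1.95-fold to 20.7-fold. uc007cwk.2 had 333 counts or 80.4 CPM, 1.95-fold below total RNA, and uc007fbw.1 had 271 counts or 65.4 CPM, 2.67-fold below. uc008mej.2 had 225 counts or 54.3 CPM (3.15-fold below), uc008ydm.1 had 36 counts or 8.69 CPM (8.53-fold below) and uc007cwn.2 had 51 counts or 12.3 CPM (15.6-fold below). uc029ryu.1 had 1 count, 20.7-fold below total RNA with an interval of 3.71-fold to 816-fold. So 5 of 6 were at least 2-fold below total RNA in nuclear IgG, against 25.2% of all clusters, and the order of depletion among the abundant clusters resembled that in nuclear IP, with uc007cwn.2 lowest and uc007cwk.2 highest relative to total RNA. Summed over the 6, cytoplasmic IgG held 74 counts, 4.59-fold below total RNA (3.66 to 5.85), and nuclear IgG held 917, 3.50-fold below (3.28 to 3.73).

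The anti-hnRNPK libraries were mostly lower still. In each compartment, all 6 IP libraries lay below the IgG library for 5 of the 6 clusters, every one but uc029ryu.1. Over all clusters this held for 26.4% in the cytoplasm and 23% in the nucleus. For 2 of these clusters the counting interval of IgG reached into the IP range. In the cytoplasm it began at 14.1 CPM for uc007fbw.1, where IP reached 18.01 CPM, and at 5.01 CPM for uc008ydm.1, where IP reached 5.57 CPM. In the nucleus it began at 6.09 CPM for uc008ydm.1, where IP reached 6.54 CPM. In these cases the gap to the highest IP library was not larger than counting error. For uc007fbw.1 the interval also covered the cytoplasmic IP median of 16.5 CPM. For uc008ydm.1 it began above the IP medians of 4.61 CPM in the cytoplasm and 4.38 CPM in the nucleus. Relative to the mean of the IP libraries, IgG was 4.96-fold higher in the cytoplasm for uc007cwk.2, 3.54-fold for uc007cwn.2, 3.10-fold for uc008mej.2, 2.95-fold for uc008ydm.1 and 1.70-fold for uc007fbw.1. In the nucleus the excess of IgG was 1.33-fold for uc008mej.2, 1.42-fold for uc007cwk.2, 1.87-fold for uc008ydm.1, 2.38-fold for uc007fbw.1 and 3.15-fold for uc007cwn.2. With 1 IgG library per compartment, these ratios have no replicate check. How much of the gap to total RNA was set by fractionation and how much by the antibody was not tested.

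In total RNA no member passed the test between mouse groups. The highest of the 6 total RNA units was 1.14 to 1.31 times the lowest, depending on the cluster, where the median over the 15487 clusters tested in total RNA was 1.53. The clusters behind that median were not matched to the members on abundance, so nothing is read from the difference. By edgeR's quasi-likelihood test, 0 of 6 were called in ob/ob against wild type, where 1.58% of all clusters were called, and 0 of 6 in high-fat diet against wild type, where 0% were. In ob/ob against high-fat diet 0 of 6 were called, where 0.491% were. None of the 6 had an unadjusted p under 0.05 in edgeR in any of these comparisons, and DESeq2 also called 0 of 6 in each.

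The largest difference was that of uc007fbw.1. It had 151 and 165 CPM in ob/ob total RNA and 174 and 184 CPM in high-fat total RNA, against 184 and 191 CPM in wild-type total RNA. Its log2 fold change in ob/ob against wild type was −0.22 ± 0.09 (adjusted p = 0.21, edgeR). Only when each of the 12 libraries was taken as a replicate of its own did it pass, at −0.21 with an adjusted p of 0.0048 in edgeR. uc008mej.2 differed the other way by 0.15 ± 0.11 (adjusted p = 0.42, edgeR). In bulk tissue, fewer cells of a type and less RNA per cell cannot be told apart, and the clusters without symbols could not be set against cell type markers.

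In the IPs the depletion was present in every mouse group, with moderate differences in its size that were not tested. uc007cwk.2 averaged 9.36 ± 0.24 CPM in ob/ob, 11.99 ± 0.11 CPM in high-fat and 11.7 ± 0.024 CPM in wild-type cytoplasmic IP (SD, n = 2 each), which lies 16.0-fold, 12.9-fold and 14.2-fold below total RNA of the same group. In nuclear IP it averaged 46.7 ± 1.9, 64.7 ± 4.9 and 58.6 ± 8.0 CPM in ob/ob, high-fat and wild-type mice, or 3.20-fold, 2.39-fold and 2.83-fold below total RNA. The ob/ob libraries were the lowest of the 3 groups in both compartments.

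uc007cwn.2 was also lowest in ob/ob in nuclear IP. It averaged 2.37 ± 1.13 CPM in ob/ob, 5.49 ± 0.14 CPM in high-fat and 3.88 ± 0.73 CPM in wild-type mice, at 77.3-fold, 37.2-fold and 48.9-fold below total RNA. The ob/ob value leans on replicate 1, with 8.64 counts and 117-fold. ob/ob replicate 2, with 24 counts, lay at 57.8-fold, close to wild-type replicate 2 at 56.4-fold. In cytoplasmic IP the groups lay within 36.2-fold to 37.97-fold. In cytoplasmic IP, uc008mej.2 was more depleted in ob/ob (16.9 ± 0.91 CPM, 10.6-fold) and high-fat mice (15.1 ± 2.0 CPM, 11.1-fold) than in wild-type mice (20.9 ± 1.4 CPM, 7.93-fold). In nuclear IP it was 4.98-fold lower than total RNA in ob/ob, 3.94-fold in high-fat and 3.78-fold in wild-type mice. uc007fbw.1 was depleted 9.06-fold, 11.9-fold and 11.8-fold in ob/ob, high-fat and wild-type cytoplasmic IP, and 6.37-fold, 5.93-fold and 6.78-fold in nuclear IP. For uc008ydm.1 these values were 13.6-fold, 16.96-fold and 18.02-fold in the cytoplasm and 16.2-fold, 13.3-fold and 19.7-fold in the nucleus. No mouse group was the most or the least depleted for every cluster.

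Of the 6 clusters, 4 hold a single transcript and 2 hold 4 transcripts each. In cluster 1925 the transcripts behaved in opposite ways. Its main transcript, uc007fbw.1 of 3889 nt, took 98.6% to 99.3% of the cluster's counts in every total RNA unit. In cytoplasmic IP it took 0% to 37.7%, with a median of 14.2%, and was at 0 counts in 3 of 6 libraries. In nuclear IP it took 0% to 25.99%, with a median of 0%, and was at 0 counts in 4 of 6 libraries.

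The rest of the counts went to uc011xdx.1, a transcript of 3729 nt. It had 9.70 to 16.8 CPM in cytoplasmic IP and 19.5 to 29.7 CPM in nuclear IP, against 1.14 to 2.21 CPM in total RNA. Thus the cluster as a whole was depleted while this minor transcript was assigned more in every IP library than in any total RNA unit. In IgG, uc011xdx.1 stood at 27.3 CPM in the cytoplasm, from only 12 counts, and at 59.6 CPM in the nucleus. Both values lay above every IP library of the same compartment, so a higher level than in total RNA was not particular to the anti-hnRNPK libraries. uc007fbw.1 itself had 0 to 6.79 CPM in cytoplasmic IP and 0 to 8.10 CPM in nuclear IP, against 149 to 189 CPM in total RNA.

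The difference in the mean share of uc007fbw.1, IP minus total RNA, was −82.1 percentage points in the cytoplasm and −90.8 in the nucleus. Both differences gave p = 0.0022 in a two-sided exact permutation test over units (n = 6 and 6), the smallest p that 924 arrangements allow, or 0.0032 after Benjamini-Hochberg adjustment over 3 such tests. All 6 IP units lay below all 6 total RNA units in each compartment. The transcript tested was picked as the most counted in these same total RNA units. Its cluster was chosen for a low ratio of IP to total RNA, so the p-values are not independent of that choice. The IgG libraries had the same composition: uc011xdx.1 took all 12 counts in cytoplasmic IgG and 247 of 271 in nuclear IgG. RSEM estimates how reads shared by overlapping transcripts are divided, and its part in these shares was not tested.

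In cluster 1071, the main transcript uc007cwn.2 took 78.2% to 81.6% of the counts in total RNA, and the IP libraries held too few counts for steady shares. In cytoplasmic IP it took 0% to 100% with a median of 81.4%, and the mean difference from total RNA of −19.8 points did not pass the exact permutation test (p = 0.44, two-sided, n = 6 and 6). In nuclear IP it was at 0 in 4 of 6 libraries and took up to 32.6%. The nuclear shares were not tested, because 1 library had fewer than 20 counts in the cluster. In IgG it had 0 of 8 counts in the cytoplasm and 0 of 51 in the nucleus.

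Clusters 1068 and 1071 lie close together in the numbering of the tables, and clusters with the numbers around them were also low in IP. This range was looked at after its values were seen. Between numbers 1066 and 1073 there are 6 clusters outside the set. In cytoplasmic IP, 6 of these 6 were called lower than total RNA, with log2 fold changes of −3.22 to −1.78, where 41.2% of all clusters were. In nuclear IP 5 of 6 were called lower, with log2 fold changes over the 6 of −2.21 to −0.27, where 42.5% of all clusters were. Around the other 4 members, at up to 3 numbers to each side, 13 of 21 tested clusters were called lower in cytoplasmic IP and 9 of 21 in nuclear IP, closer to the whole table. The files do not say whether adjacent numbers are neighbours in the genome or share sequence, and how RSEM divided reads among such clusters was not tested.

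**Figure D3:**
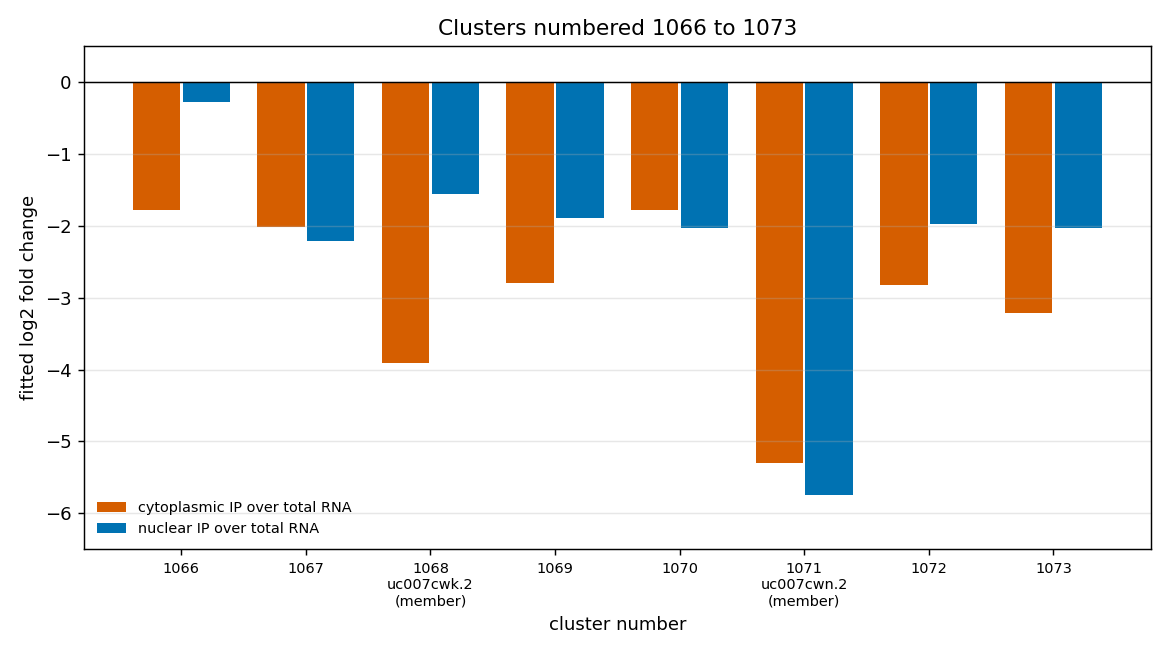
Fitted log2 fold change of cytoplasmic IP over total RNA (orange) and nuclear IP over total RNA (blue) for the clusters numbered 1066 to 1073, with uc007cwk.2 and uc007cwn.2 marked as members. All bars point down, from −5.75 for uc007cwn.2 in nuclear IP to −0.27 for cluster 1066 in nuclear IP.

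The clusters whose profile over the 18 units was most like the mean of the 6 were uc007cmc.1 and uc008txl.1. Likeness was the Euclidean distance between log2 levels, each centred on its own mean in total RNA, over 11137 candidate clusters. Their distances were 1.21 and 1.26 log2 units, the smallest of all candidates because they were picked for that. The members' own distances to that mean were 2.00 for uc008ydm.1 to 7.75 for uc029ryu.1. As the members were not picked by distance, nothing is read from setting these values side by side. uc007cmc.1 had 21.4 to 36.6 CPM in cytoplasmic IP and 36.2 to 62.5 CPM in nuclear IP, against 421 to 529 CPM in total RNA. uc008txl.1 had 1.63 to 3.39 CPM in cytoplasmic IP and 3.35 to 5.29 CPM in nuclear IP, against 43.8 to 59.6 CPM in total RNA.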

How the data were processed

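The tables list expected counts, TPM and length per transcript, which the authors deposited and made with RSEM 1.2.8 per the submitters' processing notes. The notes also name bcl2fastq, TopHat2 2.0.10, Bowtie2 2.1.0, SAMtools and build mm10, with no role or order. The library kit was TruSeq RNA, per the labels' protocols; whether it was stranded is not given there. Each of the 26 tables held 59121 transcripts in 31469 clusters.

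The deposited expected counts of a cluster's transcripts were added and then rounded. The deposited TPM values were used for levels per length and as an alternative. The 12 total RNA libraries were summed to 6 units by replicate number, taking libraries of 1 number as runs of the same RNA, which the labels do not state. Labels of the IgG libraries name hnRNPK-bound RNA as the molecule while their titles name IgG, and the titles were followed. IgG entered no test.

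Tests used edgeR 4.0.16 (quasi-likelihood, TMM, filterByExpr, Benjamini-Hochberg, threshold 0.05) with limma 3.58.1 in R 4.3.3, on 6 total RNA units or all 18 units, fitting group means with no block. IP contrasts average the 3 mouse groups with equal weight. Standard errors were taken as |log2 fold change|/√F. CPM use TMM over the 18 units and 2 IgG libraries. Per-library folds are set against the mean of the 2 total RNA units of the same mouse group. Ratios of summed counts have exact binomial intervals and IgG levels exact Poisson ones. Isoform shares were tested by exact permutation where every unit had at least 20 counts in the cluster. The fits were tested on simulated data.

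The members and all comparisons were chosen with earlier results of these data known. The rule for other named clusters took the 2 most like the mean member, and the first 2 outside the set by the highest ratio to total RNA. Gene lists and cell type markers were not used, because no table pairs the identifiers with symbols, and no sequence was matched. Alternatives were library-size scaling, DESeq2 size factors, DESeq2 1.42.0, no filter, a replicate block, deposited TPM, each library as a replicate, and leaving out each replicate.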

Additional observations from a re-analysis of the deposited data

Results flagged for a closer look

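The sets of 6 units numbered 24, made up of each cluster's CPM by kind of RNA and the main transcript's share in 2 clusters. In them, 4 values stood far from the other 5. Chance flags about 1 in 20 sets of normally spread values. That rate does not hold for sets made mostly of 0 values, such as uc029ryu.1 in cytoplasmic IP and the nuclear share of uc007cwn.2. No excess is therefore read from the count. uc007cwn.2 had 4.19 CPM in cytoplasmic IP of ob/ob replicate 1, the lowest of 6 with a median of 5.37 CPM. uc029ryu.1 had 0.322 CPM in cytoplasmic IP of high-fat replicate 2, where the other 5 libraries had 0 counts. The same cluster had 0.836 CPM in nuclear IP of high-fat replicate 1, above a median of 0.211 CPM. The share of uc007cwn.2 in its cluster was 32.6% in nuclear IP of wild-type replicate 1, where the median was 0%.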

How the results depend on the processing

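The number of members called between mouse groups in total RNA stayed at 0 under every alternative run but 1. With each library as its own replicate, it was 1 in ob/ob against wild type and 1 in ob/ob against high-fat diet, both times uc007fbw.1. In nuclear against cytoplasmic IP, 5 members were called, and leaving out single replicates gave 3 to 5, with 3 without wild-type nuclear IP replicate 2. With a replicate block, 5 were called there and 0 in each total RNA comparison. Same-numbered nuclear and cytoplasmic IP units deviated together with r of 0.26 in ob/ob, −0.04 in high-fat and 0.35 in wild-type mice, so the numbers were not taken as pairs.

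The median log2 fold change of the members in cytoplasmic IP against total RNA, −4.00, was −4.51 with library-size scaling and −4.77 from TPM, and −4.02 to −3.93 without single replicates. In nuclear IP, −3.42 became −3.78 and −3.81, and ranged from −3.44 to −3.32 without single replicates. Library-size scaling moved the median of all clusters from −0.11 to −0.62 in cytoplasmic IP and from −0.18 to −0.54 in nuclear IP. Summed nuclear IgG against total RNA, −1.81 on the log2 scale, was −1.70 under both library-size scaling and TPM. uc008ydm.1 in nuclear against cytoplasmic IP, −0.013, turned to 0.15 with library-size scaling, 0.029 with DESeq2 size factors and 0.032 in DESeq2, and ranged from −0.097 to 0.072 without single replicates.

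Without each unit in turn, the shares of uc007fbw.1 differed by −86.2 to −78.6 points for cytoplasmic IP and −94.4 to −89.2 for nuclear IP. The exact permutation test gave p = 0.0022, rounded, each time. Because every IP unit lay below every total RNA unit, leaving out a single unit could not change that p, so nothing is read from it. Counts over all clusters in total RNA varied widely: ob/ob against wild type gave 244 in edgeR, 91 with library-size scaling, 63 with the block, 387 without the filter, 2104 in DESeq2, 5777 with each library as a replicate, 0 without either ob/ob unit and 3221 without wild-type unit 1. High-fat against wild type gave 0, with 1527 at an unadjusted p under 0.05 in edgeR, 320 in DESeq2, 2001 with each library and 1175 without wild-type unit 1. ob/ob against high-fat gave 76, 49 with library-size scaling, 33 with the block, 144 without the filter, 1433 in DESeq2, 4885 with each library, and 0 to 12 without single units. Depth limits uc029ryu.1 in every IP and IgG library, and all members in cytoplasmic IgG.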
